A study of Mus musculus with 4 samples.

Results

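Homologous recombination repairs broken DNA from an intact copy, and the Fanconi anaemia pathway unhooks crosslinks that join the strands of DNA. The genes followed here are 33 mouse genes of these pathways, fixed as a list of symbols. Each was taken from the row of the deposited table that carries its symbol, and 32 of the 33 were found there. Fanca was not analysed here. All 32 passed the filter used for the comparison, a minimum RPKM of 1 in at least 1 genotype (reads scaled to transcript length and sequencing depth). So did 16473 genes of the table that have a row of their own symbol, 12184 of them protein-coding. These include the members, except Rad54b. Rad54b shares its row with Fsbp, a gene that lies within it, so its values hold both.

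The RNA came from the testes of 4-day-old C57BL/6 mice. The control group and the group with a mutation that impairs retinoic acid signalling in germ cells hold 2 libraries each. The labels name neither the modified gene nor the promoter that restricts it to germ cells, and do not say how many animals gave each library. Cells carrying THY1 (CD90.2), a protein on the surface of undifferentiated spermatogonia, had been collected on magnetic beads in both groups. The table gives 1 combined value per genotype, so no difference below could be set against a spread between libraries and no test was possible.

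In recombination the MRE11, RAD50 and NBS1 proteins find a double-strand break, CtIP and exonucleases such as EXO1 resect its ends, and BRCA1, PALB2 and BRCA2 act as mediators that prepare the resected strand for pairing with the intact copy. In the Fanconi pathway a core complex of several FANC proteins attaches ubiquitin to FANCD2 and FANCI, which clamp onto the crosslinked DNA. ATM and ATR are the kinases that sense breaks and stalled forks, and CHK2 and CHK1 are the effector kinases they switch on. Germ cells draw on many of these proteins: mice without Fanconi or recombination genes often have few germ cells, and meiosis uses the same machinery on programmed breaks.

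The repair genes were expressed in both genotypes and none differed by 2-fold or more between them. Each difference is given as log2((mutant RPKM + 1) / (control RPKM + 1)), where the added 1 makes differences of weakly expressed genes smaller. On this scale 0 of 32 genes had a mutant value at least 2-fold higher and 0 a value at least 2-fold lower, where 4.4% of all genes were higher and 4.35% lower by that rule, and 1.31% and 4.06% of protein-coding genes. The genes lay on both sides of control: 19 of 32 (59.4%) lay above control and 13 below it, with differences from -0.49 to 0.47 and a median of 0.08, against 44.3% above control, 55.7% below it and a median of -0.06 for protein-coding genes. Of all genes, 50.4% lay above control and 49.6% below it. Without the 15 genes whose exons overlap those of another gene, 7 of the remaining 17 lay above control and the median was -0.056, on the other side of 0. With the mutant column rescaled so that the germ cell list described below had a median of 0, all 32 lay below control and their median was -0.42, while the median of protein-coding genes was -0.54. The sensor kinases Atm and Atr and the mediators Brca2 and Palb2 had the highest mutant values relative to control together with Fancm, while their partners Chek2 and Chek1 had the lowest together with the Rad54b row.

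A smaller step of 1.2-fold, chosen after the values were seen, separated 12 genes. The 9 with higher mutant values were Atr, Atm, Fancm, Palb2, Brca2, Rad50, Fancg, Blm and Fancc, which is 28.1% of the 32, against 29.9% of all genes and 22.3% of protein-coding genes. The 3 with lower mutant values were Chek2, Rad54b and Chek1, which is 9.38% of the 32, against 30.2% of all genes and 33.9% of protein-coding genes. The nearest genes outside this step were Rad51c at 0.25 and Nbn at -0.22. Membership depended on the trend over transcript length and GC content, described below. With that trend removed, Atr (0.22), Atm (0.20), Brca2 (0.13) and Blm (0.22) no longer passed the step. Fance (0.28) and Fancf (0.34) then passed it upward and Brip1 (-0.32) downward.

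**Figure D1:**
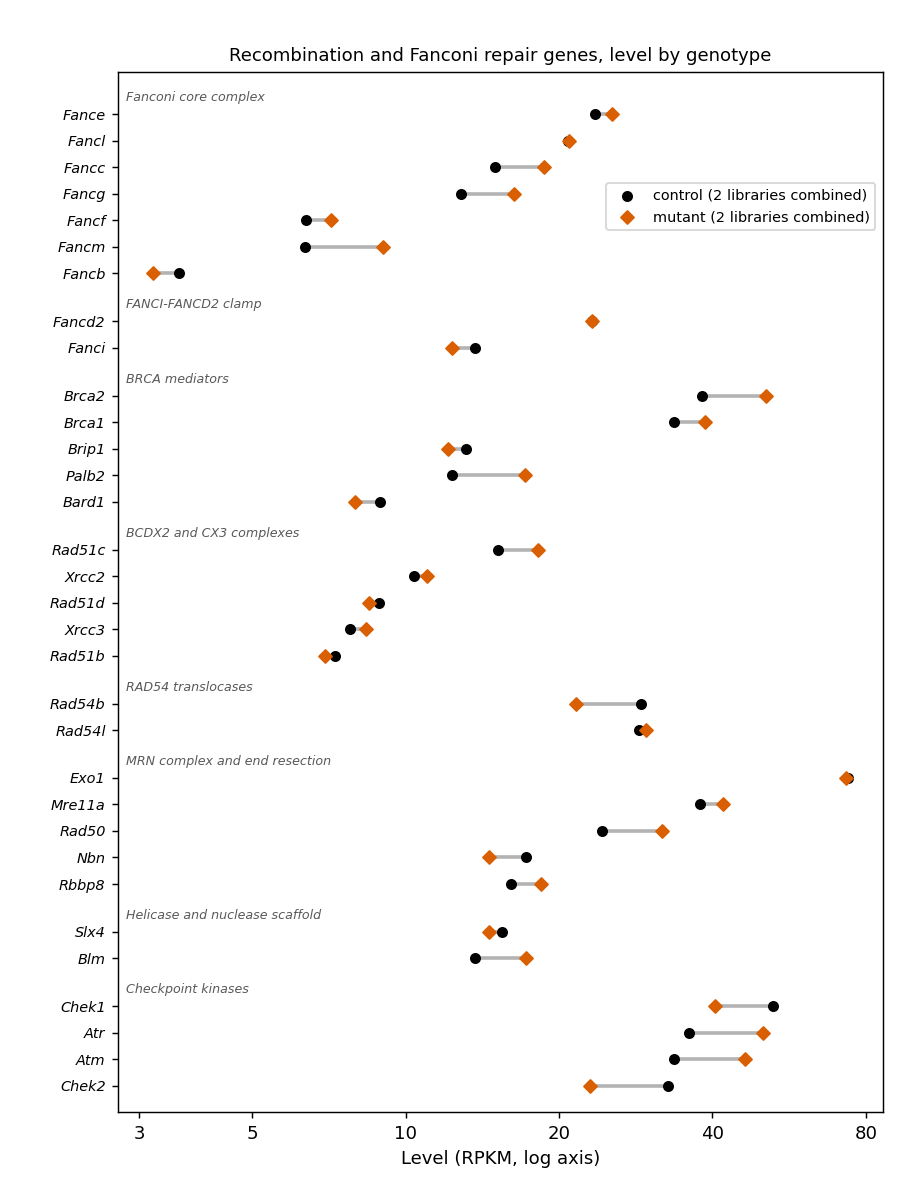
Level of each gene in RPKM (log axis) in control (black circles) and mutant (orange diamonds), 1 value per genotype from 2 combined libraries, grouped by role and ordered by control level; the Rad54b row also holds Fsbp. Levels run from 3.59 RPKM for Fancb to 73.8 RPKM for Exo1 in control and from 3.19 to 73.1 RPKM for the same genes in mutant.

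Levels of the 32 genes spanned from 3.59 to 73.8 RPKM in control (median 15.8) and from 3.19 to 73.1 RPKM in mutant (median 18.3). RPKM is scaled to transcript length, so these levels can be compared between genes. Protein-coding genes in the comparison had medians of 13.7 and 12.6 RPKM. If the longest coding transcript gave all reads, the lowest values stood for 533 control reads (Fancf) and 507 mutant reads (Fancb). Intervals below are exact 95% intervals of the ratio of such read counts, and they cover counting error only, not the spread between animals or libraries. For 10 of the 32 genes the interval included a ratio of 1.

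The checkpoint kinases split into sensors and effectors. Atm (chromosome 9, 53439149 to 53536740 in GRCm38), the kinase that answers double-strand breaks, was at 33.6 RPKM in control against 46.4 RPKM in mutant. Atr, the kinase of stalled replication forks, was at 36.1 RPKM in control against 50.3 RPKM in mutant. Both sensors were thus higher in the mutant, 1.38-fold for Atm (interval 1.36 to 1.41) and 1.40-fold for Atr (1.37 to 1.42). Chek2 (chromosome 5, 110839979 to 110874145), which encodes the effector CHK2 activated by ATM, was at 32.7 RPKM in control against 23.0 RPKM in mutant. Chek1 (chromosome 9, 36708482 to 36727065), which encodes CHK1 activated by ATR, was at 52.5 RPKM in control against 40.5 RPKM in mutant. Both effectors were lower in the mutant, 1.42-fold for Chek2 (1.35 to 1.49) and 1.30-fold for Chek1 (1.26 to 1.33).

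Within each kinase pair the balance of levels therefore differed between the genotypes. The Atm level was 1.03 times that of Chek2 in control and 2.02 times in mutant. The Atr level was 0.687 times that of Chek1 in control and 1.24 times in mutant, so that their order was exchanged. Such ratios within a genotype do not depend on how the columns are scaled to each other. The row of Atr runs past the annotated end of the gene, and the part of neighbouring genes in its ratio to Chek1 was not tested. The sensors have long transcripts (9.82 kb for Atm and 8.10 kb for Atr) and the effectors shorter ones (2.28 kb for Chek2 and 3.80 kb for Chek1), and long transcripts in general had higher mutant values, as described below. With the trend over transcript length and GC content removed, the log2 difference between sensor and effector went from 0.95 to 0.64 for Atm and Chek2, and from 0.84 to 0.71 for Atr and Chek1.

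**Figure D2:**
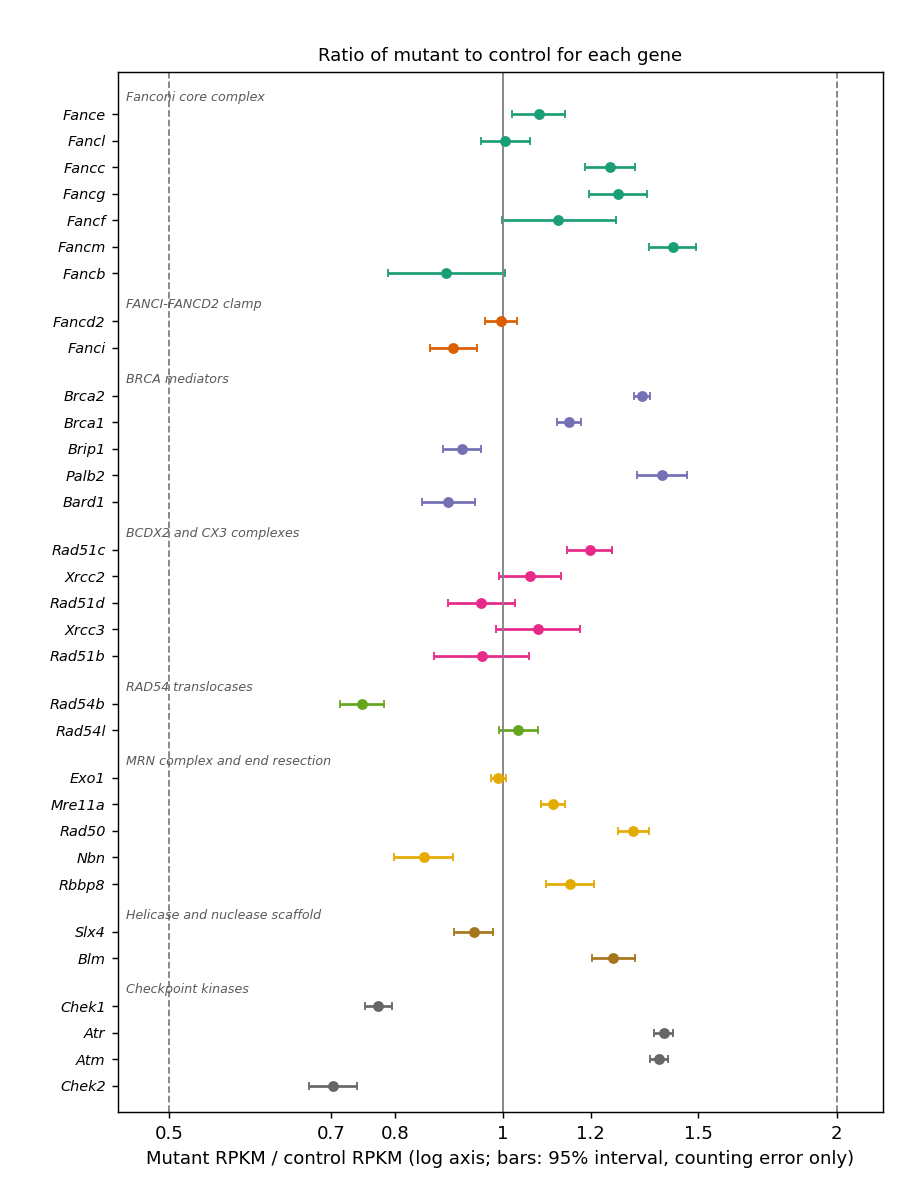
Ratio of mutant to control RPKM for each of the 32 genes (log axis), coloured and grouped by role, with bars for the 95% interval of counting error only and dashed lines at 2-fold. Chek2, Rad54b and Chek1 sit lowest, Atr, Atm, Fancm and Palb2 highest, and no gene reaches a dashed line.

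The BRCA mediators act on resected ends. Brca2 (chromosome 5, 150522630 to 150570329), a large mediator protein that acts at the break, was at 38.1 RPKM in control against 50.9 RPKM in mutant, 1.33-fold higher (1.31 to 1.36). Palb2, the bridge between BRCA1 and BRCA2, was at 12.3 RPKM in control against 17.1 RPKM in mutant, 1.39-fold higher (1.32 to 1.47). The Brca2 level was 3.10 times that of Palb2 in control and 2.97 times in mutant. With the trend over length and GC content removed, the log2 difference between Brca2 and Palb2 went from -0.04 to -0.31. Brca1, a ubiquitin ligase that promotes resection, was at 33.7 and 38.6 RPKM, while Bard1, its obligate partner, was at 8.91 and 7.95 RPKM. The Brca1 level was thus 3.78 times that of Bard1 in control and 4.86 times in mutant. Brip1, the FANCJ helicase that binds BRCA1, was at 13.2 and 12.1 RPKM.

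Genes of the MRN complex and of end resection also differed in direction. Mre11a, the nuclease subunit, was at 37.8 RPKM in control against 42.0 RPKM in mutant. Rad50, the ATPase subunit that tethers DNA ends (chromosome 11, 53649519 to 53707319), was at 24.3 RPKM in control against 31.9 RPKM in mutant, 1.31-fold higher (1.27 to 1.35). Nbn, which encodes NBS1, the subunit that recruits ATM, was at 17.2 RPKM in control against 14.6 RPKM in mutant, 1.18-fold lower (1.11 to 1.25). Of the 3 subunits, Nbn had the lowest level in both genotypes, and the ratio of Rad50 to Nbn was 1.42 in control and 2.19 in mutant. Rbbp8, which encodes CtIP, was at 16.1 and 18.5 RPKM. Exo1, the exonuclease of long-range resection, had the highest level of all 32 genes and nearly the same value in both genotypes, at 73.8 and 73.1 RPKM (ratio 0.990, interval 0.975 to 1.01).

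Of 7 genes of the Fanconi core complex 6 lay above control, with a median difference of 0.14, where 50.4% of all genes and 44.3% of protein-coding genes lay above control. For Fancf and Fancl, counted among these 6, the interval from counting alone included a ratio of 1. Exons of Fancc, Fance, Fancf, Fancl and Fancm, also among the 6, overlap those of another annotated gene. Fancm, the translocase that brings the complex to DNA (chromosome 12, 65075606 to 65132058), was at 6.34 RPKM in control against 9.03 RPKM in mutant, 1.42-fold higher (1.35 to 1.49). Fancg, an adaptor subunit, was at 12.8 and 16.3 RPKM, and Fancc at 15.0 and 18.7 RPKM. Fance, which contacts FANCD2, was at 23.6 and 25.4 RPKM, and Fancf at 6.37 and 7.14 RPKM. Fancl, the ubiquitin ligase subunit, differed least, at 20.8 and 20.9 RPKM. Fancb, the X-linked subunit, was the 1 core gene below control, at 3.59 and 3.19 RPKM, and its ratio of 0.889 had an interval of 0.787 to 1.004 from counting alone. Of the substrates of the complex, Fancd2 was nearly the same in both genotypes, at 23.3 and 23.2 RPKM (ratio 0.996, interval 0.963 to 1.03). Fanci lay below control, at 13.7 and 12.3 RPKM (ratio 0.902, interval 0.859 to 0.947).

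The 5 genes of the BCDX2 and CX3 complexes, which assist recombination after resection, all lay inside the 1.2-fold step. Rad51c was at 15.2 RPKM in control against 18.2 RPKM in mutant, the largest difference of the 5. Xrcc2 was at 10.4 and 10.99 RPKM, Xrcc3 at 7.77 and 8.36 RPKM, Rad51d at 8.85 and 8.47 RPKM, and Rad51b at 7.27 and 6.96 RPKM. For these other 4 genes the interval from counting alone included a ratio of 1. The RAD54 translocases move along DNA during recombination: Rad54l was at 28.7 and 29.7 RPKM, while the row of Rad54b and Fsbp was at 28.9 and 21.6 RPKM, 1.34-fold lower (1.28 to 1.40). Fsbp exons cover 35.8% of the annotated exon bases of Rad54b, so the row does not say which gene the difference belongs to. Blm, the helicase that dissolves joint molecules, was at 13.7 and 17.2 RPKM, and Slx4, the scaffold of the nucleases that cut them, at 15.5 and 14.6 RPKM.

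Transcript length moved with these differences. Over the 32 genes Pearson's r between log2 transcript length and the difference was 0.408, and Spearman's rho 0.370. Over the 12184 protein-coding genes these were 0.213 and 0.228. Both are descriptions across genes, which share their libraries and are not replicates. All 3 members of 8 kb or more (Brca2, Atm and Atr) lay above control, with a median of 0.46, as did 65.9% of the 657 protein-coding genes of that length, with a median of 0.18. Without these 3 genes, over the 29 shorter members, r was 0.208 and rho 0.165. The median difference of members was 0.09 under 2.5 kb, 0.04 from 2.5 to 4 kb, -0.01 from 4 to 6 kb and 0.09 from 6 to 8 kb. Of the 5 members under 2.5 kb, 3 lay above control, as did 33.6% of 4532 protein-coding genes of that length. With the trend over length and GC content removed, Atr stood at 0.22, Atm at 0.20 and Brca2 at 0.13, while Palb2 stood at 0.44, Fancg at 0.43 and Fancc at 0.38. Chek1 stood at -0.48, Chek2 at -0.44 and the Rad54b row at -0.43. With the trend removed 19 genes lay above 0 and 13 below it, with Fancl and Rad51d exchanging sides (from 0.01 to -0.07 and from -0.06 to 0.002).

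**Figure D3:**
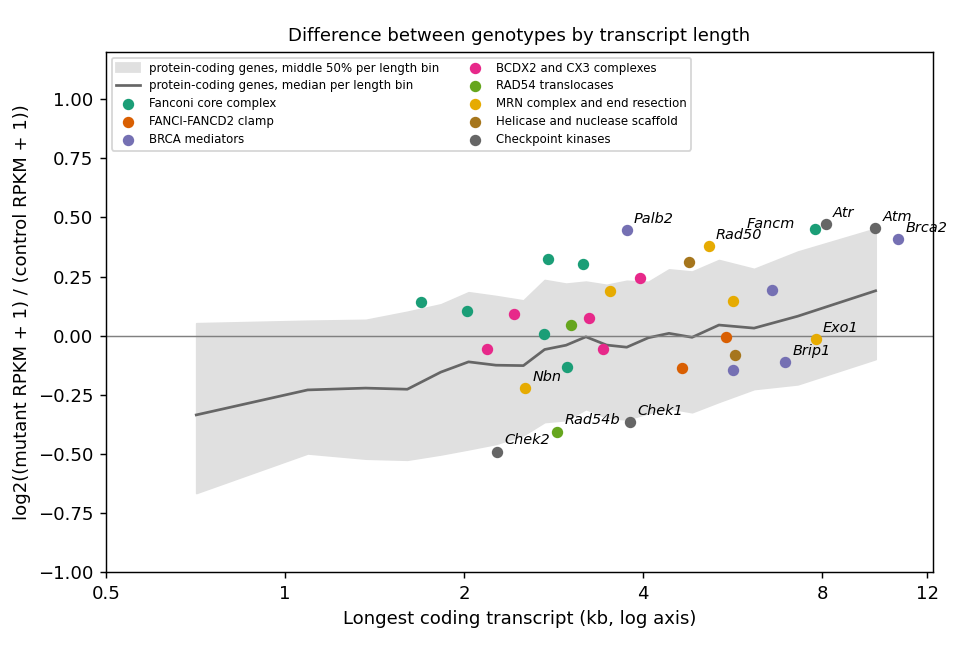
Difference between genotypes, log2((mutant RPKM + 1) / (control RPKM + 1)), against the length of the longest coding transcript (kb, log axis), for the 32 genes coloured by role; the grey line and band are the median and middle 50% of protein-coding genes in 20 length bins. The grey median climbs with length, Brca2, Atm and Atr lie at the long end, and Chek2, Rad54b and Chek1 lie near or below the lower edge of the band.

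The promoters of the genes were read for elements known from cell cycle genes. E2F factors bind promoters of S phase genes, and CHR elements with CCAAT boxes are typical of G2 and M phase genes. RefSeq promoters (GRCm38.p6, 250 bases before to 50 after the start) matched 24 of the 32 genes by symbol. An E2F core was searched as TTCCCGC or TTCGCGC or TTGCCGC or TTGGCGC, a CHR element as TTTGAA and a CCAAT box as CCAAT, each on both strands. An E2F core stood in the promoters of 14 of the 24 genes (58.3%), against 9.57% of all 32851 promoters and 19.1% of 9531 protein-coding genes in the comparison. CCAAT stood in 16 of 24 (66.7%, against 37.4% of all promoters and 43.2% of those protein-coding genes) and TTTGAA in 2 of 24 (8.33%, against 17.9% and 14.3%). In 1 gene, Fancf, an E2F core overlapped a CCAAT match. The S phase list was similar, with an E2F core in 18 of 27 genes. These are matches of letters only, and do not show that a factor binds. The following stretches of 30 bases around a core are shown because genes with a core stand at both ends of the differences; each reads 5′ to 3′ in the direction of its gene, and capitals mark the core or its reverse complement.
Atm (chr9:53536639-53536668, minus strand): atagagccggaaGCGGGAAggcgtgcgtac
Brca1 (chr11:101551917-101551946, minus strand): ggctagcgctagGCGCCAAgcggccggttt
Fancg (chr4:43010335-43010364, minus strand): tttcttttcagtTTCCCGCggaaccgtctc
Blm (chr7:80535123-80535152, minus strand): gaatcatccttcTTGCCGCgcagagcgtgc
Fancf (chr7:51862371-51862400, minus strand): agttcattttcaGCGCCAAtgtgccccgga
Rad51c (chr11:87404942-87404971, minus strand): tcccccgcgaggGCGGGAAaagcaaggggt
Chek1 (chr9:36726609-36726638, minus strand): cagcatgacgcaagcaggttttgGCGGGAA
Fanci (chr7:79392344-79392373, plus strand): gcgtggagtagaGCGGGAAttttggaagga
Fancb (chrX:164980408-164980437, plus strand): tccggggtagagGCGGGAAtaagtgctctg
Brip1 (chr11:86201180-86201209, minus strand): gaggggcgggagGCGCGAAttcatctgtgt
Bard1 (chr1:71103163-71103192, minus strand): ccgccgctcagtTTCCCGCtcaggaagttt

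Upstream stretches of 250 bases follow for a sensor kinase and an effector kinase gene that differed in opposite directions, and for Brca2 and Fancm. They end at the base before the RefSeq start, which can differ by some bases from the gene coordinates given above, and capitals mark E2F cores and CCAAT matches on either strand.
Atr (chr9:95857347-95857596, plus strand): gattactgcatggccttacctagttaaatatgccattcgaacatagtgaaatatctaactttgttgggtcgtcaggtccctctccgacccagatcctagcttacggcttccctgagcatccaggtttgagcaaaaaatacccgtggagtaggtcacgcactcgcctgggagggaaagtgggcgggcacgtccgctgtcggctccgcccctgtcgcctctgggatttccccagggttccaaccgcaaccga
Chek2 (chr5:110839733-110839982, plus strand): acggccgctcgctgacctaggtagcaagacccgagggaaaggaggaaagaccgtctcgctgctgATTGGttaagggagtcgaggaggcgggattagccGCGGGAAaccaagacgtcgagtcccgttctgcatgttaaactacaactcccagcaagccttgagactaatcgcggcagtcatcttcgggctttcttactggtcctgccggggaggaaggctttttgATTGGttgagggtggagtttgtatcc
Brca2 (chr5:150522371-150522620, plus strand): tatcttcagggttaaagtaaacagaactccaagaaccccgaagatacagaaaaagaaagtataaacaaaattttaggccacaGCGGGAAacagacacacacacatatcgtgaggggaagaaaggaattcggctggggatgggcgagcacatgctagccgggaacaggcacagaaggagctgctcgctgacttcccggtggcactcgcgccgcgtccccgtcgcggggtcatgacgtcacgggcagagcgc
Fancm (chr12:65075353-65075602, plus strand): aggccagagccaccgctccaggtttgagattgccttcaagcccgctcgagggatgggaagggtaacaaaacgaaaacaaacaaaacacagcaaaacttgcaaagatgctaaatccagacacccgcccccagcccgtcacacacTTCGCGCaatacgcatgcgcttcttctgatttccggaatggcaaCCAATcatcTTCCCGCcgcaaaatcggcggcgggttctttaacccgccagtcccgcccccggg

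Atr had no E2F core in its promoter window, and the Atm core lay 16 bases past the start. The Chek2 core lay 152 bases before the start, that of Brca2 168 bases before it, and those of Fancm 107 and 54 bases before it. The 14 genes with a core had differences from -0.49 (Chek2) to 0.46 (Atm), with 8 above control and a median of 0.17. The 10 genes without one had differences from -0.08 to 0.47, with 8 above control and a median of 0.10. The genes with a core that lay below control were Chek2, Chek1, Bard1, Fanci, Fancb and Brip1. Slx4 (-0.08) and Rad51b (-0.06) also lay below control and had a promoter entry, but held no core. Nbn (-0.22) and the Rad54b row (-0.41) were among the genes below control that had no promoter entry. Whether the groups with and without a core differ was not tested.

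Other genes of the pathway, from a list of 41 that leaves out the members, lay on both sides of control as well: 20 lay above it and 21 below it, with differences from -0.60 to 1.08 and a median of -0.02. Rad52, an annealing protein with a supporting role in mammals, was the 1 gene past 2-fold, at 9.15 RPKM in control against 20.5 RPKM in mutant. Thus 2.44% of the list was at least 2-fold higher, against 4.4% of all genes and 1.31% of protein-coding genes. At least 2-fold lower were 0 genes of the list, against 4.35% of all genes and 4.06% of protein-coding genes. Of the genes with the highest levels, H2afx, whose histone marks breaks when phosphorylated by ATM, was at 215 and 165 RPKM, and Rpa2, a subunit of the single-strand binding protein, at 103 and 90.2 RPKM. Rnf8 shared its row with 4 other symbols, so its value of 110 RPKM in control against 129 RPKM in mutant is not its own. A further 2 genes are named after their values were seen. Polq, the polymerase of an error-prone end joining that competes with recombination, was at 6.18 and 13.4 RPKM, a difference of 0.999 just short of 2-fold. Dmc1, the recombinase of meiosis, was at 7.82 and 8.21 RPKM.

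Of 33 genes of other repair pathways none met the 2-fold rule. By that rule 4.4% of all genes were higher and 4.35% lower, and 1.31% and 4.06% of protein-coding genes. In a list of this size a count of 0 is near the share of protein-coding genes. The 7 genes of non-homologous end joining had a median of -0.01, with Xrcc6 and Xrcc5, the Ku subunits, at 54.0 and 51.1 RPKM and at 28.2 and 36.5 RPKM, and Xrcc4 at 18.9 RPKM in both genotypes. The 7 mismatch repair genes had a median of 0.17, with 5 above and 2 below control. The recognition gene Msh6, the lowest difference of that list (-0.32), was at 65.3 and 52.2 RPKM. The 9 nucleotide excision repair genes had a median of 0.04, with 6 above and 3 below control. Ddb1, a damage-binding subunit with the lowest difference of that list (-0.21), was at 145 and 125 RPKM. The 10 base excision repair genes had a median of -0.19, with 4 above and 6 below control. Among them Apex1, the abasic site endonuclease, was at 97.0 and 109 RPKM and Ung, the uracil glycosylase, at 66.1 and 46.8 RPKM. With the trend over length and GC content removed, the base excision repair median was -0.02, with 5 genes above 0. The medians of the other lists, in the order given, were then -0.03, 0.11 and 0.12. Whether the recombination and Fanconi genes differ from these lists was not tested.

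S phase genes lay lower as a list. Of 34 measured S phase genes 31 lay below control, 22 of these past the 1.2-fold step, and the median was -0.39, and their summed level was 2306 RPKM in control against 1751 RPKM in mutant. Pcna, the sliding clamp of replication, was at 164 and 109 RPKM, and Slbp, which binds histone mRNA, at 139 and 119 RPKM. The summed level of the 32 repair genes was instead 692 RPKM in control against 739 RPKM in mutant, a ratio of 1.07 against 0.759 for S phase. Of 22 genes of G2 and M phase 18 lay below control, with a median of -0.15. Among those with the highest levels, the row of Top2a, shared with Gm23451, was at 186 and 201 RPKM and Cenpa at 137 and 103 RPKM. Cdk1, the mitotic kinase, was at 139 and 87.9 RPKM, the lowest difference of that list (-0.66). Once the trend over length and GC content was taken out, the medians were 0.08 for the repair genes, -0.33 for S phase and -0.15 for G2 and M phase.

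**Figure D4:**
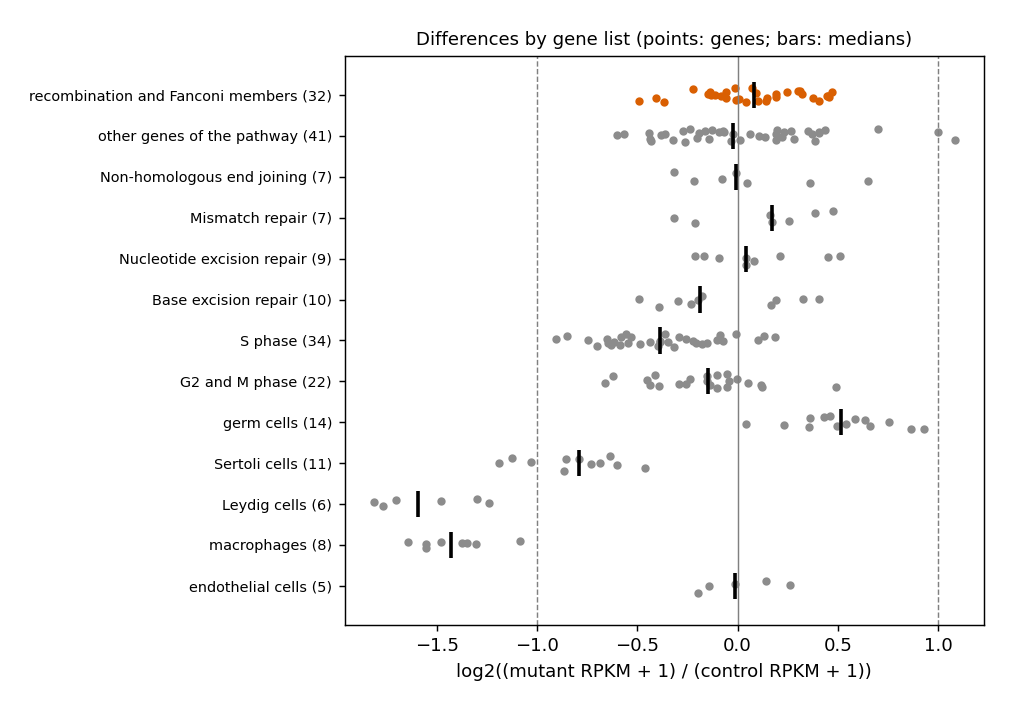
Differences between genotypes, log2((mutant RPKM + 1) / (control RPKM + 1)), for each gene (points) and the median (bars) of the 32 repair genes and of other lists, with the number of measured genes in brackets and dashed lines at 2-fold. The repair genes spread around 0, most S phase genes lie below it, all 14 germ cell genes lie above it, and Leydig cell and macrophage genes lie beyond 2-fold below.

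Markers of several cell types differed between the genotypes, and their part in the values above was not tested. All 14 germ cell markers lay above control, with a median of 0.52 and a summed level of 928 RPKM in control against 1281 RPKM in mutant; Ddx4, the germ cell helicase, was at 88.6 and 114 RPKM. The 10 markers of undifferentiated spermatogonia, the cells that the THY1 selection is meant to collect, divided into 5 above and 5 below control, with a median of 0.06 and a summed level of 300.6 RPKM in control against 262 RPKM in mutant. Among them Zbtb16, a repressor of differentiation, was at 24.4 and 53.7 RPKM, Gfra1, the receptor for GDNF, at 35.9 and 14.2 RPKM, and Sall4, a zinc finger factor, at 72.3 and 30.3 RPKM. The rest of the list is given too, though not past 2-fold. Etv5 was at 58.6 and 36.9 RPKM, Cdh1 at 6.10 and 3.16 RPKM and Lin28a at 30.9 and 26.1 RPKM. Higher in mutant were Ret at 30.9 and 39.6 RPKM and Id4 at 18.5 and 26.7 RPKM. So were Egr4 at 19.6 and 26.1 RPKM and Nanos2 at 3.37 and 5.35 RPKM. All 8 macrophage markers were at least 2-fold lower, from a sum of 3844 to 1358 RPKM, as were all 6 Leydig cell markers, from 741 to 237 RPKM. The 11 Sertoli cell markers lay below control, from 413 to 197 RPKM, as did the 4 measured peritubular myoid markers, from 86.3 to 37.1 RPKM. The 5 endothelial markers had a median of -0.01. None of the measured markers was at 0 in either genotype. In such bulk samples fewer cells of a type and less RNA per cell cannot be told apart. Stra8 and Kit, targets of the retinoid signal, had values of 45.2 RPKM in control against 8.60 RPKM in mutant and of 27.3 against 9.65 RPKM.

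Several values can hold reads of a neighbouring gene, because the sources used here do not say whether counting used strand. Exons of 15 of the 32 genes overlapped exons of another annotated gene. For Fanci these were 16.0% of its exon bases, shared with Polg (77.7 and 104 RPKM), for Rad54l 15.4% with Lrrc41 (45.7 and 45.3 RPKM), for Fancf 15.0% with Gas2 (12.8 and 17.4 RPKM) and for Fancl 13.7% with Vrk2 (12.5 and 8.69 RPKM). Fancc shared 16.4% of its exon bases with Gm16133 (0.634 and 0.346 RPKM), Palb2 5.64% with Gm16326 and Fancm 5.51% with Gm47870. Atm, Chek1, Chek2, Rad50 and Nbn had no such overlap, and that of Brca2 covered 0.301% of its exon bases. Atr shared 3.07% or less with each of its neighbours, but its row runs from 95855418 to 96057803 on chromosome 9, past the annotated end of the gene at 95951781. The rows of 8 members, Atr, Fancc, Fancd2, Fancf, Fanci, Fancl, Rad54l and Xrcc3, run over 1 kb past the annotated gene, and the part of neighbouring genes in their values was not tested.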

How the data were processed

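RNA-seq of testis cells selected for THY1 was deposited as 1 table of 43998 entries. The collected cells also gave RNA of macrophage, Leydig and Sertoli cell markers, as given above. Per the file headers its values are RPKM, with 1 column made by the authors from both control libraries and 1 from both mutant libraries; the sources used here do not give the way of combining them. Per the submitters' processing notes, TopHat2 2.0.11 and GRCm38 were used. For the counting program and its annotation the sources used here name nothing. Groups follow the titles in the labels.

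Entries with several symbols (981) were left out of the background but kept for members and lists. For a repeated symbol the highest mean decided which entry was kept; no member was repeated. Differences are log2((mutant RPKM + 1) / (control RPKM + 1)) of genes that reach an RPKM of 1 in at least 1 genotype. With 1 value per genotype no test was run, no paired check was possible, and members are described beside all genes. The members, lists and rules were chosen with earlier results of these data known. Named were all members and, of each other list, genes past 2-fold or, where fewer than 3 were, those with the highest means; exceptions are stated, and some genes that the lists hold are not reported here by name.

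Depth was read from low values: for genes with 1 transcript of at least 1000 nt in GENCODE M21, RPKM multiplied by transcript length less 210 nt fell within 0.1 of a whole read for 85.1% of 1523 control and 90.7% of 1511 mutant values up to 10 reads, which places the depth near 56.6 M and 57.3 M reads if no other scaling entered. Read numbers use the longest coding transcript and are approximate. The length and GC trend is a quadratic fit over protein-coding genes. Of the table's rows for the members, 18 had the exact start and end of GENCODE M21, after adding 1 to starts; the others span neighbouring genes or differ at an end. Scripts used Python 3.11.15, pandas 2.3.3, numpy 2.4.6 and scipy 1.17.1 and were tested on simulated data.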

Additional observations from a re-analysis of the deposited data

How the results depend on the processing

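No gene was past 2-fold with a pseudocount of 0.1 or 0.5, without the filter, with an RPKM of 5 or more required (31 genes, since Fancb was too low), after quantile normalization, with the length and GC trend removed or with repeated entries summed. The median difference lay between 0.08 and 0.12 and 19 to 21 genes were above control under these settings. Single differences moved by more than 0.05 for 24 genes with the length and GC trend removed. They did so for 4 genes after quantile normalization and for 1 with a pseudocount of 0.1. Rescaling to a germ cell list median of 0 gave 1 gene past 2-fold (Chek2, at -1.01), a median of -0.42 and 0 genes above control, by the shift of the mutant column itself. Of the alternatives added after the values were seen, leaving out the 15 genes with exon overlap gave a median of -0.056 with 7 of 17 genes above control (the cause was not tested), leaving out the Rad54b row gave a median of 0.09, and 1.2-fold in place of 2-fold gave 12 genes. No paired analysis was possible because each genotype has 1 combined value; for the same reason no replicate could be left out. Counting intervals included a ratio of 1 for 10 genes, and the spread between libraries is unknown for all 32. Without the 3 members of 8 kb or more, Pearson's r of length and difference went from 0.408 to 0.208.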
